A study of Mus musculus with 6 samples.

Results

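The nuclear genes of the oxidative phosphorylation complexes I to V were followed in RNA-seq of mouse glomerular endothelial cells. Members were chosen by symbol: Nduf genes of the a, b, c, s and v series (complex I), Sdha to Sdhd (complex II), Uqcr genes and Cyc1 (complex III), Cox4 to Cox8 genes (complex IV) and Atp5 genes (complex V). This took 79 of the 12911 genes listed in each library, with 37 in complex I, 4 in complex II, 9 in complex III, 12 in complex IV and 17 in complex V. All 79 passed the filter on low counts and were among the 12786 genes tested. The symbol rule also takes Ndufa4, which by structure belongs to complex IV, and 4 genes that are no fixed subunit of the complex they are counted in: Ndufa4l2, Cox7a2l, Atp5s and Atp5sl. Mitochondrially encoded subunits were not analysed here.

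The cells came from mice that lacked endothelial nitric oxide synthase (eNOS-null), in the untreated control group as much as in the group given streptozotocin (STZ), which destroys pancreatic beta cells and is used to induce diabetes. Bead-captured glomeruli were dissociated, and EYFP-positive cells were sorted. There were 3 control and 3 STZ libraries, each made from the pooled RNA of 4 mice. The comparison asks how STZ treatment goes with gene expression in this cell type on the eNOS-null background. The age of the mice, the STZ dose, the time after it and the promoter behind EYFP were not given in the sources used here. Because each library is a pool, errors and p-values reflect pool-to-pool spread only, and single mice were not measured.

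Total deposited counts ran from 4387339 to 8751732.5 in the control libraries and from 10734376 to 12662371.5 in the STZ libraries, so every STZ library was deeper and depth and treatment cannot be told apart. Markers of glomerular endothelium summed to 13796 to 15936 CPM (counts scaled to the normalized library size) in the control libraries. In the STZ libraries they summed to 24337 to 26413 CPM. Of the 10 markers 6 were called higher in STZ, beside 5.47% of all genes. The median log2 fold change of the 10 (STZ over control) was 0.45. The groups also split completely by sex-linked genes (4 higher and 1 lower of 5), so sex and treatment cannot be told apart either. The 3 members on the X chromosome (Ndufa1, Ndufb11 and Cox7b) were not called.

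Oxidative phosphorylation couples the oxidation of NADH and succinate to ATP synthesis in the inner mitochondrial membrane. Complexes I and II pass electrons to ubiquinone, complex III passes them on to cytochrome c, and complex IV to oxygen; complexes I, III and IV pump protons, and complex V (ATP synthase) uses the proton gradient to make ATP. Endothelial cells are known for a strong reliance on glycolysis, and the respiratory chain in diabetic kidney has long been studied as a source of reactive oxygen species.

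Many of these genes share compact CpG-rich promoters with sites for nuclear respiratory factor 1 (NRF1), for ETS-family factors such as GABP (NRF2) and for YY1. RefSeq promoter windows on GRCm38.p6, from 250 bases before to 50 after the gene start, were found for 66 of the 79 members. The 150 bases upstream of the start are printed below, 5′ to 3′ on the gene's strand, for 4 members: the complex I gene that was called higher (Ndufc2), the complex I gene with the next smallest p in the same direction (Ndufb7), the flavoprotein of complex II (Sdha) and the member most abundant per kb of transcript (Cox6a1). Capitals mark matches to the NRF1 motif (GCGCA, any base, then GCGC) and to the ETS motif CCGGAAG or its reverse complement CTTCCGG. The YY1 motif ATGGCGG was searched too, and all 3 on both strands. The stretches are chr7:97399853-97400002 (plus strand) for Ndufc2, chr8:83566608-83566757 (plus strand) for Ndufb7, chr13:74350241-74350390 (minus strand) for Sdha and chr5:115348959-115349108 (minus strand) for Cox6a1.
Ndufc2: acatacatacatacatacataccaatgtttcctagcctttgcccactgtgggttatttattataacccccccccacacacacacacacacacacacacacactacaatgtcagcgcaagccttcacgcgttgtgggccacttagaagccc
Ndufb7: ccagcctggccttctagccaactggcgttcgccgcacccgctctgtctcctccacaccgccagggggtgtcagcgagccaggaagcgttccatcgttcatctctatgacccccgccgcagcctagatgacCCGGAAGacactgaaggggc
Sdha: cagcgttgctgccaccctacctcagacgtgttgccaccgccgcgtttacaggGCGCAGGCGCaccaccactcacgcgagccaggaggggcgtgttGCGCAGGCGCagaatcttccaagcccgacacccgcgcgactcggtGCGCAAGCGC
Cox6a1: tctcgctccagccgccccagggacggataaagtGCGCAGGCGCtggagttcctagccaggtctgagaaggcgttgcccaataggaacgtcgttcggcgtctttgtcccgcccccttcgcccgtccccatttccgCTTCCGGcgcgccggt

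Sdha held 3 matches to the NRF1 letters in the printed stretch, Cox6a1 held 1 NRF1 and 1 ETS match, Ndufb7 held 1 ETS match, and Ndufc2 held none of the 3 motifs in its whole 300-base window. Matches to different motifs did not overlap in these 4 sequences. Over the 66 member windows, 24.2% held the NRF1 letters, 22.7% the ETS letters and 13.6% the YY1 letters. The same shares over the 10204 listed genes with a window were 10.3%, 18.0% and 8.33%. At least 1 of the 3 motifs was found in 53.0% of member windows and in 31.8% of all windows. A match is a description of the letters, and no binding was measured in these libraries.

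Members were abundant in both groups. Per kilobase (kb) of the listed transcript, their median level over the 6 libraries was 83.6 CPM per kb against 12.3 CPM per kb for all tested genes, a ratio of 6.82. Of the 79 members, 77 lay above the median of all genes. Together they took between 0.566% and 0.727% of a library's counts. Cox6a1, a nuclear subunit of cytochrome c oxidase in its non-muscle form, was highest at 385 CPM per kb, followed by Atp5h (294 CPM per kb; subunit d of the ATP synthase stalk), Cox4i1 (253 CPM per kb) and Atp5b, the catalytic beta subunit (222 CPM per kb). Cox7a1, the heart and muscle form of subunit 7a, was lowest at 5.34 CPM per kb, with Atp5s (7.17 CPM per kb) and Ndufa4l2 (14.1 CPM per kb) next to it. Because lengths are those of the listed transcripts, the order between genes carries the error of that choice.

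**Figure D1:**
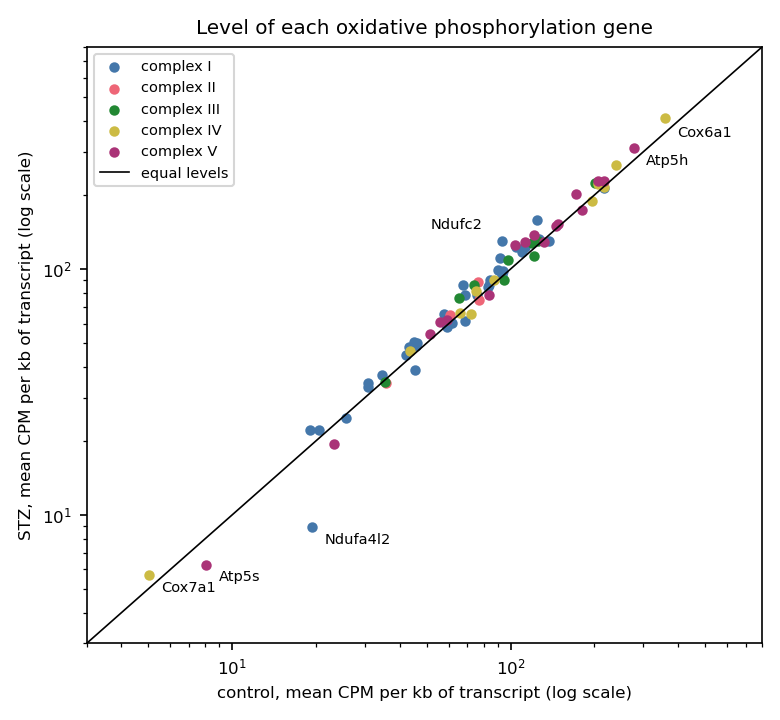
Mean CPM per kb of transcript of the members, except 1 that is not reported here, in the 3 control libraries (horizontal axis, log scale) and the 3 STZ libraries (vertical axis, log scale), colored by complex, with a line of equal levels. Group means spread from 5.02 CPM per kb (Cox7a1 in control) to 412 CPM per kb (Cox6a1 in STZ). Most members lie close to the line, while Ndufa4l2 lies below it.

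Between groups, 1 member was called higher in STZ (Ndufc2) and 1 lower (Ndufa4l2), and 77 did not pass the threshold. Calls are adjusted p-values under 0.05 from the edgeR quasi-likelihood test with Benjamini-Hochberg adjustment over all 12786 genes. By the same rule 9.78% of all genes were called (5.47% higher and 4.32% lower). DESeq2 called 10.7% of the 12042 genes to which it gave an adjusted p, and limma-voom called 9.25% of 12786, with the same 2 members in each. Of the 79 members 6 had an unadjusted p under 0.05, against 24.2% of all genes. Over the members the log2 fold change (STZ over control) had a median of 0.09, against -0.01 over all tested genes. Its sign was positive in 57 members (72.2%) and negative in 22, while 48.2% of all genes were positive. With a trend on transcript length removed from the counts, the split was 46 positive and 33 negative and the median 0.02. The median also turned on single pools: it was 0.0021 without control pool 3 (41 positive, 38 negative) and 0.18 without control pool 2 (70 positive, 9 negative).

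The 95% interval of the fold change lay within 1.5-fold in either direction for 71 of the 79 members (89.9%), against 61.6% of all tested genes, and within 2-fold for 77. The 8 members whose interval reached beyond 1.5-fold were Ndufa1, Ndufa3, Ndufa4l2, Ndufb2, Ndufb7, Ndufc2, Cox7a1 and Atp5s. For most members the spread within a group exceeded the difference between groups. In 76 of 79 the range of the control libraries was larger than the absolute log2 fold change (96.2%, against 72.2% of all genes), and in 67 the range of the STZ libraries was (84.8%, against 62.9%).

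**Figure D2:**
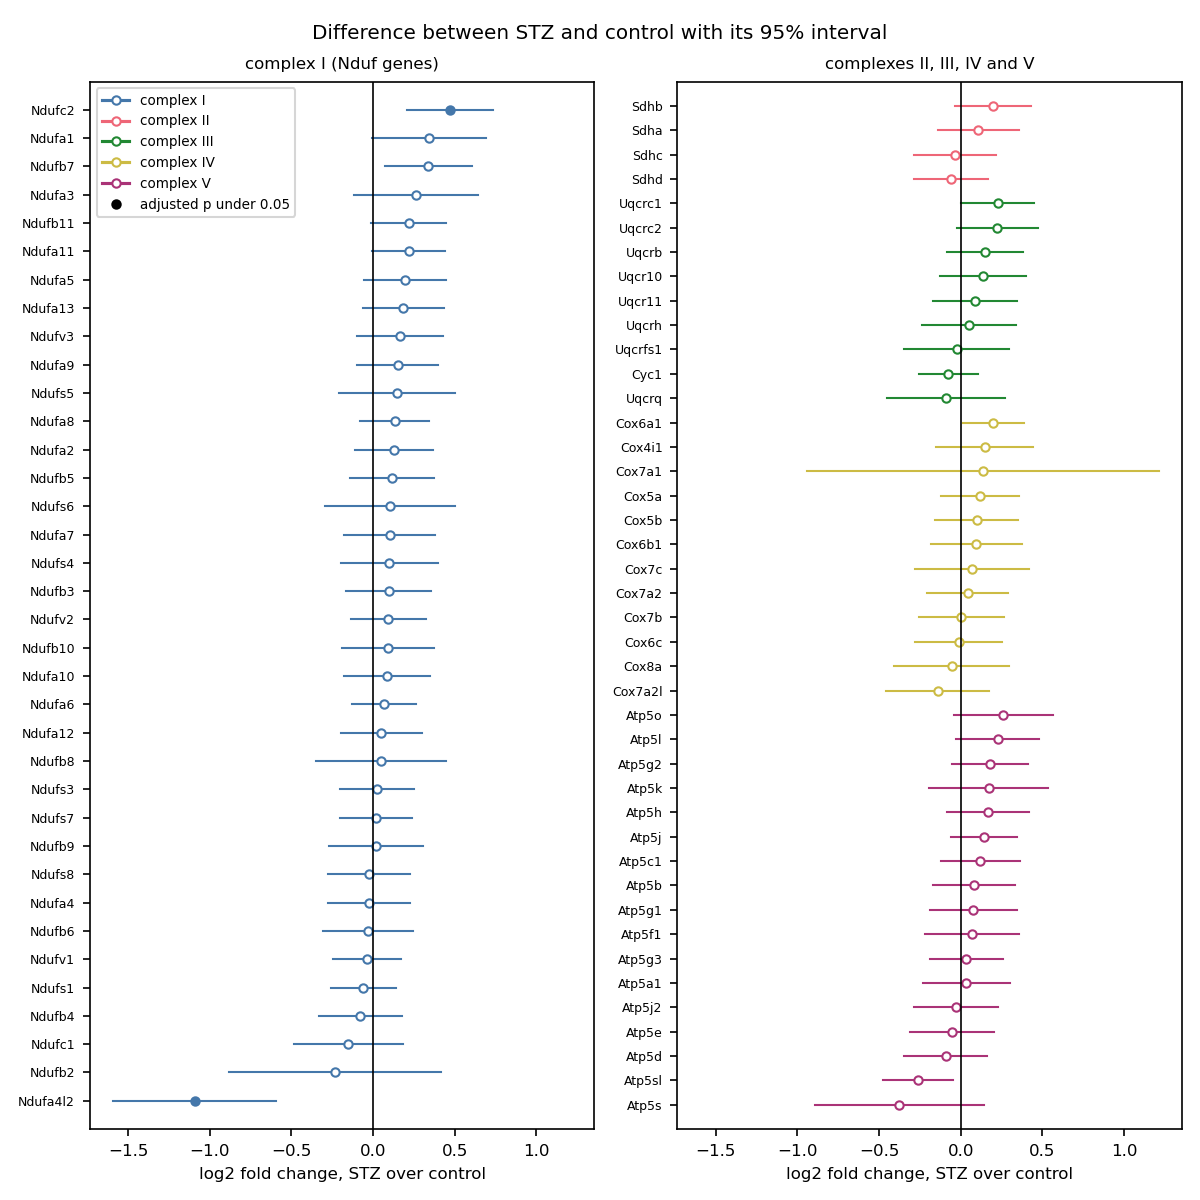
Log2 fold change of STZ over control for the members except 1 that is not reported here (points) with its 95% interval (lines), complex I on the left and complexes II to V on the right. Filled points have an adjusted p under 0.05: Ndufc2 at 0.47 and Ndufa4l2 at -1.09 are the 2 filled points, and most intervals cross 0.

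Complex I is the largest of the 5, with core subunits that carry the flavin and iron-sulfur clusters and a shell of accessory subunits. Over its 37 genes the median log2 fold change was 0.09, with 28 positive and 9 negative. Both called members are in this group. The 7 nuclear core genes had a median of 0.02 and a range of -0.06 to 0.09, and none was called. Over the 14 Ndufa genes the median was 0.13, and over the 10 Ndufb genes it was 0.07. Summed levels of the complex were 2700 ± 342 CPM per kb in control and 2894 ± 188 CPM per kb in STZ (SD, n = 3 each), so the means differed by less than the control SD.

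Ndufc2 (NM_024220; mm10 chr7:97400003-97407800, plus strand) encodes an accessory subunit of the membrane arm. Its levels were 63.1, 74.2 and 52.8 CPM in control pools 1, 2 and 3 and 93.8, 92.3 and 78.5 CPM in STZ pools 1, 2 and 3. Every STZ pool lay above every control pool, the nearest values being control pool 2 and STZ pool 3. It rose by a log2 fold change of 0.47 ± 0.12 (SE; 95% interval 0.21 to 0.73), with an adjusted p of 0.0270 by edgeR quasi-likelihood. Leaving out 1 pool ended the call in 4 of the 6 fits: adjusted p was 0.109 without the first control pool, 0.0531 without the third, 0.121 without the first STZ pool and 0.0658 without the second, with fold changes of 0.37 to 0.60 on the log2 scale over the 6 fits. Under the settings that keep all libraries the adjusted p ran from 0.0109 to 0.0404.

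The accessory genes with the next smallest p values among those positive were Ndufb7 and Ndufa1. Ndufb7, a membrane-arm subunit on the intermembrane-space side, was at 70.6, 74.9 and 53.2 CPM in control and at 91.8, 75.8 and 84.9 CPM in STZ. The groups did not overlap, although control pool 2 and STZ pool 2 were within 1 CPM of each other. The log2 fold change was 0.34 ± 0.12, with an unadjusted p of 0.0173 and an adjusted p of 0.111 (edgeR quasi-likelihood). Ndufa1, a small X-linked subunit needed for assembly, was at 36.4, 36.9 and 26.1 CPM in control and 47.5, 33.8 and 45.9 CPM in STZ, so the groups overlapped (0.34 ± 0.16, adjusted p = 0.215). Ndufa11, another membrane-arm subunit, was at 51.8, 56.2 and 44.2 CPM against 59.6, 57.2 and 60.7 CPM. Its STZ pools also lay above its control pools, at an adjusted p of 0.225.

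Ndufa4l2 (NM_001098789; mm10 chr10:127514939-127517156, plus strand) is a paralogue of Ndufa4 that is induced by hypoxia-inducible factor and is also used as a marker of pericytes and other mural cells. Its levels were 14.0, 21.5 and 20.3 CPM in the control pools and 8.31, 6.31 and 11.2 CPM in the STZ pools. All 3 STZ pools were below all 3 control pools, with STZ pool 2 lowest and STZ pool 3 nearest to control pool 1. It fell by 1.09 ± 0.23 on the log2 scale (95% interval -1.59 to -0.59), with an adjusted p of 0.00992 by edgeR quasi-likelihood. The call held in each alternative that was run, with adjusted p from 0.00027 to 0.0485. It rests on 73 to 138 deposited counts per library.

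Ndufa4, the paralogue that sits in cytochrome c oxidase (NM_010886; mm10 chr6:11900373-11907446, minus strand), had the highest level per kb among the Nduf genes, at 215 CPM per kb. It was at 105.8, 119.5 and 93.9 CPM in control and at 113.1, 88.6 and 112.5 CPM in STZ. The groups overlapped, and the log2 fold change was -0.03 ± 0.12 (adjusted p = 0.924), with an interval of -0.28 to 0.23. Per kb, Ndufa4l2 made up 8.22 ± 1.83% of the sum of both paralogues in control and 3.98 ± 0.73% in STZ (SD, n = 3 each). Its share was between 6.31% and 9.95% in the control pools and between 3.51% and 4.82% in the STZ pools.

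Markers of mesangial and other mural cells moved in the same direction as Ndufa4l2. The 12 tested markers summed to 1377, 1369 and 1272 CPM in control pools 1, 2 and 3 and to 770, 493 and 905 CPM in STZ pools 1, 2 and 3. STZ pool 2, where the sum was lowest, was also the pool lowest in Ndufa4l2, and STZ pool 3 the highest of the STZ pools in both. Among controls the order differed: control pool 1 had the highest marker sum and the lowest Ndufa4l2. All 12 fold changes were negative with a median of -0.86, and 4 were called lower, beside 4.32% of all genes. They were Rgs5 (-1.13), a regulator of G-protein signalling in pericytes, and Cspg4 (-1.28), which encodes NG2. The others were the receptor Notch3 (-0.999) and the smooth muscle myosin Myh11 (-0.79). In 11 of 12 the STZ pools lay below the control pools, against 13.7% of all genes. None of these markers was at 0 in either group. Their part in the Ndufa4l2 result was not tested, and in these bulk samples fewer cells of a type and less RNA per cell cannot be told apart.

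Of the other marker lists, the 8 podocyte markers had 0 calls and a median of -0.52. Of the 10 proximal tubule markers 3 were listed, with 0 calls and a median of -0.13. Of 5 listed distal tubule and collecting duct markers 1 was called lower, with a median of -1.25. Among leukocyte markers 1 of 5 was called lower (median 0.27). Among erythroid markers 3 of 5 were called higher, with a median of 2.25, and in all 5 the STZ pools lay wholly above. Over all genes 5.47% were called higher and 4.32% lower, and in 15.4% the STZ pools lay wholly above. Their part in the results was not tested.

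**Figure D3:**
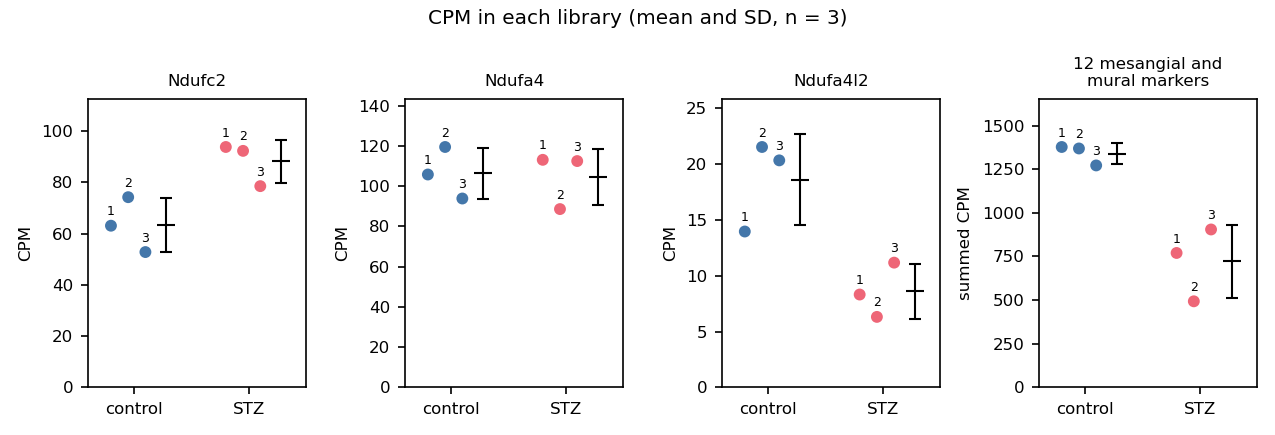
CPM of Ndufc2, Ndufa4 and Ndufa4l2 and the summed CPM of 12 mesangial and mural markers in each library (points, numbered by pool), with the mean and SD of each group beside the points (n = 3). Ndufc2 sits higher in STZ (78.5 to 93.8 against 52.8 to 74.2 CPM), Ndufa4 overlaps, and Ndufa4l2 and the marker sum sit lower in STZ.

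Complex II (succinate dehydrogenase) links the citric acid cycle to the chain, pumps no protons and is wholly encoded in the nucleus. None of its 4 genes was called, and the median log2 fold change was 0.04. Sdha, the catalytic flavoprotein (NM_023281; mm10 chr13:74322255-74350240, minus strand), was at 187, 189 and 142 CPM in control and 197, 170 and 194 CPM in STZ (0.11 ± 0.11, adjusted p = 0.619). Sdhb, the iron-sulfur subunit, was at 84.6, 89.5 and 72.7 CPM against 102, 82.4 and 100.0 CPM (0.20 ± 0.11, adjusted p = 0.288). In both genes control pool 3 was lowest of its group and STZ pool 2 lowest of its own, and the groups overlapped. The membrane anchors Sdhc and Sdhd had log2 fold changes of -0.03 ± 0.12 and -0.06 ± 0.10, with intervals of -0.28 to 0.22 and -0.29 to 0.17. Summed over the 4 genes the level was 249.5 ± 25.3 CPM per kb in control and 263 ± 15.4 CPM per kb in STZ (SD, n = 3 each).

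Complex III (the cytochrome bc1 complex) passes electrons from ubiquinol to cytochrome c. Its 9 genes had a median log2 fold change of 0.09, with 6 positive, 3 negative and none called. The smallest p belonged to Uqcrc1, a core protein on the matrix side (NM_025407; mm10 chr9:108936648-108949641, plus strand). It was at 119.9, 138.1 and 108.3 CPM in control and 155.7, 137.8 and 135.7 CPM in STZ. The groups overlapped by a narrow margin, since control pool 2 lay above STZ pools 2 and 3 (0.23 ± 0.10, adjusted p = 0.198). Its partner core protein Uqcrc2 had a log2 fold change of 0.22 ± 0.11 (adjusted p = 0.258), and Uqcrb, the ubiquinone-binding subunit, 0.15 ± 0.11 (adjusted p = 0.445). Uqcrb has near-identical annotated transcripts of 3 other genes, so its count is less certain.

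The 2 nuclear-encoded redox proteins of complex III had intervals across 0. Cyc1, which encodes cytochrome c1, was at 113.3, 119.0 and 107.4 CPM in control and 106.8, 105.2 and 110.5 CPM in STZ, with the smallest SE of any member (-0.08 ± 0.08, interval -0.26 to 0.11). Uqcrfs1, the Rieske iron-sulfur protein, was lowest per kb in the complex (35.04 CPM per kb) and had a log2 fold change of -0.03 ± 0.15. Uqcrh, the hinge protein, was at 0.05 ± 0.13. Summed levels of complex III were 934 ± 110 CPM per kb in control and 990.3 ± 68.1 CPM per kb in STZ (SD, n = 3 each).

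Complex IV (cytochrome c oxidase) reduces oxygen, and several of its nuclear subunits exist in tissue-specific forms. Only the non-muscle or ubiquitous forms Cox4i1, Cox6a1, Cox6b1 and Cox8a were listed of their pairs, and Cox4i2, Cox6a2, Cox6b2 and Cox8b were not among the listed genes. Its 12 members had a median log2 fold change of 0.08 with 9 positive, and none was called. Cox6a1 (NM_007748; mm10 chr5:115345654-115348955, minus strand) had the smallest p. It was at 196.3, 194.5 and 181.6 CPM in control and 230.2, 209.6 and 218.5 CPM in STZ. The groups did not overlap, and the difference of 0.20 ± 0.09 did not pass the threshold (unadjusted p = 0.0377, adjusted p = 0.177).

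Cox4i1, the ubiquitous form of subunit 4, was at 153.6, 192.1 and 135.0 CPM in control and 201.0, 153.6 and 178.5 CPM in STZ. Control pool 1 and STZ pool 2 were equal to 1 decimal, and the log2 fold change was 0.15 ± 0.14 (adjusted p = 0.569). Cox5a (0.12 ± 0.11), Cox6b1 (0.10 ± 0.13) and Cox8a (-0.05 ± 0.16) also had intervals across 0. Of the 2 listed subunit 7a forms, Cox7a2 made up 90.8% to 97.6% of their sum per kb in the 6 libraries. The muscle form Cox7a1 had 3 to 30 deposited counts per library, and its interval was the widest of the members (0.14 ± 0.49, -0.94 to 1.21). Cox7a2l, a factor that joins complexes III and IV in supercomplexes, was at -0.14 ± 0.14 (adjusted p = 0.607). Summed levels of complex IV were 1774 ± 247 CPM per kb in control and 1881 ± 134 CPM per kb in STZ (SD, n = 3 each).

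Complex V (ATP synthase) has a catalytic head and central stalk, a peripheral stalk and a membrane ring of c subunits. Its 17 members had a median log2 fold change of 0.08, with 12 positive, 5 negative and none called. The 5 genes of the head and central stalk had a median of 0.03. Atp5b (NM_016774; mm10 chr10:128083307-128090388, plus strand) was at 414.9, 453.4 and 348.8 CPM in control and 470.9, 376.2 and 442.0 CPM in STZ, overlapping groups with a difference of 0.08 ± 0.12 (adjusted p = 0.730). Among peripheral stalk and membrane subunits, Atp5o was at 0.26 ± 0.14 (adjusted p = 0.283), Atp5l at 0.23 ± 0.12 (adjusted p = 0.265) and Atp5h at 0.17 ± 0.12 (adjusted p = 0.426). These 3 have annotated transcripts of other genes that are nearly identical to them, so their counts are less certain.

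Atp5g1, Atp5g2 and Atp5g3 encode the same mature c subunit behind different import sequences. Per kb, Atp5g1 made up 15.3% to 16.1% of their sum in the 6 libraries, Atp5g2 36.5% to 41.1% and Atp5g3 42.9% to 47.7%. Atp5g3 gave the largest share in each library and Atp5g1 the smallest, and the ranges of the 3 genes did not overlap. Their log2 fold changes were 0.08, 0.18 and 0.04, each with an interval across 0. Atp5g1 and Atp5g2 also have near-identical copies.

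The 2 lowest fold changes of the Atp5 group belonged to genes that are no subunit of the enzyme. Atp5sl (NM_025504; mm10 chr7:25619493-25625550, plus strand), a protein of complex I assembly despite its name, was at 56.5, 53.0 and 56.6 CPM in control and 46.8, 48.9 and 42.9 CPM in STZ. The STZ pools lay below the control pools, and the difference of -0.26 ± 0.10 did not pass the threshold (unadjusted p = 0.0199, adjusted p = 0.122). Atp5s, coupling factor B, was at -0.38 ± 0.24 with 43 to 125 deposited counts per library (adjusted p = 0.369). Summed levels of complex V were 2094 ± 259 CPM per kb in control and 2245 ± 232 CPM per kb in STZ (SD, n = 3 each).

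Over all 5 complexes the STZ pools lay wholly above the control pools in 4 members (Ndufa11, Ndufb7, Ndufc2 and Cox6a1) and wholly below in 2 (Ndufa4l2 and Atp5sl), and overlapped in 73. Across all tested genes 15.4% lay wholly above, 13.7% wholly below and 29.1% did either. Leaving out Ndufa4l2, Cox7a2l, Atp5s and Atp5sl, the other 75 members had 1 gene called higher, 0 lower and a median of 0.09.

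The pools of a group differed in the same way for most members. In each library the level of each gene was taken relative to its own mean over the 6 libraries. The median over the 79 members was -0.04, 0.13 and -0.24 on the log2 scale in control pools 1, 2 and 3, and 0.16, -0.07 and 0.07 in STZ pools 1, 2 and 3. Over all tested genes the same medians were within 0.01 of 0 in each library. Control pool 3 was the lowest control in 66 of 79 members (83.5%, against 37.0% of all genes) and control pool 2 the highest in 67 (84.8%, against 34.8%). Among STZ libraries, pool 2 was lowest in 59 members (74.7%, against 38.8%) and pool 1 highest in 58 (73.4%, against 32.2%). Both control pool 3 and STZ pool 2 were lowest of their group in 54 members (68.4%), against 19.1% of all genes.

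Each complex showed this order. Control pool 3 was lowest among controls in 30 of 37 genes of complex I, 3 of 4 of complex II, 8 of 9 of complex III, 10 of 12 of complex IV and 15 of 17 of complex V. The second principal component of all genes (24.4% of the variance) also set control pool 3 (-27.8) and STZ pool 2 (-13.3) apart from the other 4 libraries (7.76 to 16.6). Without both of these pools the member median was 0.05, Ndufc2 was no longer called (log2 fold change 0.33, adjusted p = 0.0609) and Ndufa4l2 was.

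Other short transcripts followed the same libraries. The median member transcript was 692 bases long, against 2882 bases for all tested genes. For the 81 cytosolic ribosomal protein genes the medians were 0.01, 0.12 and -0.23 in control and 0.19, -0.09 and 0.00 in STZ. For the 297 tested genes outside the members that were no longer than 692 bases they were -0.00, 0.07 and -0.21 in control and 0.15, -0.04 and 0.04 in STZ. With the trend on transcript length removed, the member medians shrank to -0.02, 0.07 and -0.09 in control and 0.06, -0.06 and 0.05 in STZ, with the same sign in each library. Of the 297 short genes, 254 are no ribosomal protein genes, with medians of -0.01, 0.06 and -0.19 in control and 0.15, -0.02 and 0.05 in STZ. With the length trend removed these were 0.01, -0.02 and -0.02 in control and 0.01, 0.00 and 0.03 in STZ, nearer to 0 in each library than those of the members. Some cell marker lists were also lowest of their group in control pool 3 and STZ pool 2. Their highest STZ median was in pool 3, whereas that of the members was in pool 1. Podocyte medians were 0.40, 0.61 and -0.46 in control and -0.13, -0.41 and -0.07 in STZ. Distal tubule and collecting duct medians were 0.99, 1.96 and -0.78 in control and 0.00, -2.88 and 0.76 in STZ. Mural and leukocyte medians were also lowest in control pool 3 and STZ pool 2. Endothelial, proximal tubule and erythroid medians were not lowest in both. Their part in the order was not tested.

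**Figure D4:**
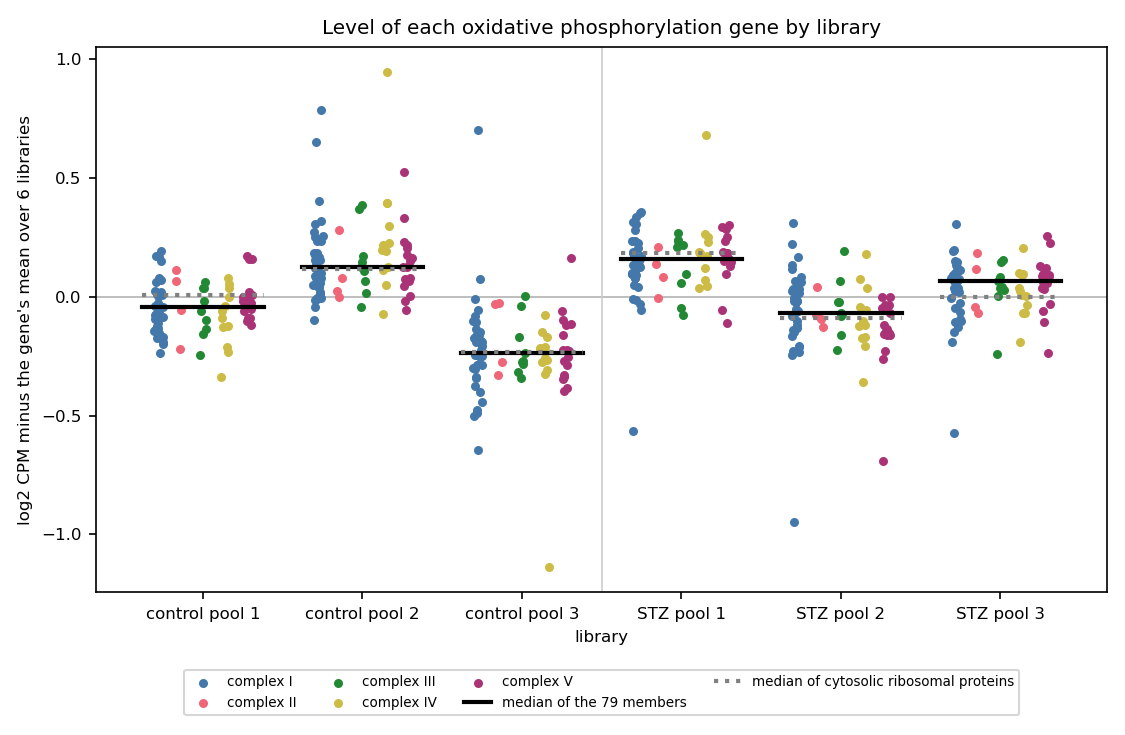
Log2 CPM of the members, except 1 that is not reported here, minus their mean over the 6 libraries, by library and colored by complex, with the median of the 79 members (solid bars) and of the cytosolic ribosomal protein genes (dotted bars). Both medians are lowest in control pool 3 (-0.24 and -0.23) and highest in STZ pool 1 (0.16 and 0.19), and the groups overlap.

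The other genes of the pathway, were taken from lists by function. Among 15 tested carriers and subunits outside the symbol rule, 1 was called higher and 1 lower, beside 5.47% and 4.32% of all genes, with a median of 0.02 and 3 with an unadjusted p under 0.05. Both are coenzyme Q genes, as are most genes of this list, and they went in opposite directions. Coq2, the prenyltransferase of coenzyme Q synthesis, was at 92.3, 91.4 and 98.1 CPM in control and 69.5, 71.0 and 69.0 CPM in STZ, and it fell by 0.43 ± 0.08 on the log2 scale (adjusted p = 0.00589, edgeR quasi-likelihood). Coq10b, a coenzyme Q binding protein, was at 51.9, 49.0 and 45.1 CPM in control and 65.7, 67.3 and 62.2 CPM in STZ, and it rose by 0.41 ± 0.10 (adjusted p = 0.0151). In both genes, which were named because they were called, the groups were separated. Over the list of 15 the STZ pools lay wholly above in 2 genes and wholly below in 2. The shares over all genes were 15.4% and 13.7%. Cycs, the mobile carrier cytochrome c, was at 0.02 ± 0.11 (adjusted p = 0.932).

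Of 16 tested regulators of mitochondrial biogenesis, 0 were called higher and 1 lower (4.32% of all genes), with a median of -0.11. An unadjusted p under 0.05 was found for 5 (24.2% of all genes). In 6 the STZ pools lay wholly below the control pools (13.7% of all genes) and in 2 wholly above (15.4%). The fold change was positive in 5 of the 16 and negative in 11. Pprc1, a coactivator of the PGC-1 family that acts with NRF1, was at 75.5, 63.1 and 87.5 CPM in control and 51.4, 49.8 and 52.1 CPM in STZ. It fell by 0.56 ± 0.11 on the log2 scale (adjusted p = 0.00737, edgeR quasi-likelihood), with every STZ pool below every control pool. Tfam, which packages mitochondrial DNA and acts in its transcription, was at -0.08 ± 0.12 (adjusted p = 0.743).

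No gene was called by edgeR in the remaining pathway lists, and 0 is read against 9.78% of all genes. They were the 42 assembly factors (median -0.03, 2 with an unadjusted p under 0.05), the 23 genes of the citric acid cycle and pyruvate dehydrogenase (median -0.04, 4 with such a p), the 77 mitochondrial ribosomal proteins (median 0.02, 9 with such a p) and the 81 cytosolic ribosomal proteins (median 0.05, 4 with such a p).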

How the data were processed

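RNA-seq of 3 control and 3 STZ libraries was used, with groups and replicate numbers from the labels. The deposited files hold 1 value per gene with RefSeq accession, coordinates and length; the values are treated as the authors' expected counts, since some are not whole (in 9 members). Lengths are those given per the file headers. The submitters' processing notes name mm10 and limma; the aligner, counter and strand setting were not given in the sources used here. Blank cells (34, 0 of them in members) were read as 0, and 1 was added to the listed starts.

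Values were rounded to whole counts and tested in R 4.3.3 with edgeR 4.0.16 (filterByExpr, which left out 125 genes; TMM; robust quasi-likelihood F test, two-sided; Benjamini-Hochberg over 12786 genes; threshold 0.05). CPM use the normalized library sizes, and log2 CPM for deviations had a prior count of 2. Precision is set by 4387339 to 12662371.5 counts per library and by the spread between pools (biological coefficient of variation 0.117). The script was tested on simulated data. Alternatives were other normalizations and filters, DESeq2 1.42.0, limma-voom (limma 3.58.1) with and without weights, a threshold of 0.10, a non-robust fit, a replicate block, counts thinned to the shallowest library, removal of a length trend and leaving out each library.

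Transcripts of GENCODE M21 were compared with BLAST 2.17.0: 12 of 79 members had a transcript of another gene at least 95% identical over at least 50% of their length, and 11 had several listed transcripts. Replicates were compared first, and none was a repeat of another. The named members were those called, the 3 with the smallest p, the 2 highest and the 1 lowest per kb of each complex, the Sdh genes and the paralogues or isoforms of a subunit; Ndufa1, Ndufa11 and Cyc1 were added after their values were seen. Of other pathway lists the called genes were named, and Cycs, Tfam and mural markers were added. Members and lists were chosen with earlier results of these data known. The values of 1 member are not reported singly here, although it is part of the counts and medians.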

Additional observations from a re-analysis of the deposited data

How the results depend on the processing

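Ndufa4l2 was called lower in each alternative run, whereas the count of members called higher was 0 to 1 over the fits that leave out 1 library and 0 without control replicate 3 and STZ replicate 2 together, a setting chosen after seeing the data. Over all genes, 426 to 695 were called higher and 236 to 596 lower with 1 library left out, the counts that moved by over 1.5 times being 444 and 276 without control replicate 1, 426 and 236 without STZ replicate 1, and 355 lower without STZ replicate 3. At a threshold of 0.10, 866 were called lower. The member median ran from 0.0021 (without control replicate 3) to 0.18 (without control replicate 2) on the log2 scale with 1 library left out and from 0.02 to 0.10 under the other settings. The labels do not say whether same-numbered pools are paired. Same-numbered pools had correlations of 0.12, -0.13 and -0.16 in their deviations. Pools with different numbers had correlations from -0.24 to 0.29. With 3 pools per group these values cannot decide whether the pools were paired. With a replicate block 1 member was called higher and 1 lower, with a median of 0.10. No called member turned sign. Over all 79 members the split was 46 positive with the length trend removed, 62 with voom sample weights and 52 without the 2 pools together, against 57. Of the named members alone, those that turned sign with the length trend removed were Atp5g3 (-0.035), Cox7a2 (-0.024) and Uqcrh (-0.036). With voom sample weights they were Ndufa4 (0.012), Sdhc (0.0091) and Uqcrfs1 (0.038), and without the 2 pools together Atp5g3 (-0.011) and Ndufa4 (0.0050). With 1 library left out the log2 fold change ranged from -0.010 to 0.17 for Atp5b, -0.051 to 0.13 for Atp5g3, -0.0091 to 0.21 for Cox6b1, -0.16 to 0.92 for Cox7a1, -0.052 to 0.12 for Cox7a2, -0.27 to 0.044 for Cox7a2l, -0.16 to 0.16 for Cox8a, -0.10 to 0.082 for Ndufa4, -0.0064 to 0.18 for Sdha, -0.15 to 0.12 for Sdhc, -0.12 to 0.20 for Uqcrfs1 and -0.059 to 0.16 for Uqcrh. The cause was not tested. Cox7a1 had low counts (3 to 30 per library).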
